A study of Mus musculus with 109 samples.

Results

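The 32 genes described here encode the machinery by which retinal neurons release transmitter: proteins of synaptic vesicles, of vesicle fusion, and of the active zones and ribbons where fusion takes place. They were chosen by function, with earlier results of these data known, as a list of symbols that spans conventional and ribbon synapses. All 32 of 32 were found among the 37315 genes of a table of read counts from mouse retina. For the description they were sorted by role into 5 SNAREs, 6 calcium sensors and complexins, 9 vesicle proteins, 8 proteins of the active zone and ribbon, and 4 proteins of SNARE recycling and endocytosis. Photoreceptors and bipolar cells release glutamate at ribbon synapses, where a plate of the protein RIBEYE holds vesicles close to the membrane and release is graded with voltage. Amacrine cells release at conventional synapses, which lack a ribbon, and retinal ganglion cells carry the signal to the brain along the optic nerve. Some components differ between the synapse types: ribbon synapses use syntaxin 3 and complexins 3 and 4 and lack synapsins, whereas conventional synapses use syntaxin 1, complexins 1 and 2 and synapsins.

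Whole retinas of mice were taken for RNA sequencing after an intravitreal injection of PBS, IL1A, TNF or both cytokines together (IL1A+TNF). The aim was to ask how the retina responds to each cytokine and to the pair. The abstract of the study gives an age of 2 to 4 months, and its methods give a higher upper age. In all, 109 retinas came from 64 mice (54 female and 55 male retinas), and both eyes were sequenced in 45 mice. WT mice were C57BL/6J, and Sarm1-/- mice were deficient in Sarm1, which encodes an enzyme that degrades NAD and is needed for injured axons to degenerate. The labels put the retinas in batch 1 or 2 without saying what a batch is, and every Sarm1-/- retina was in batch 2.

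WT retinas collected at day 2 in batch 1 were 31 after PBS, 9 after IL1A, 8 after TNF and 10 after IL1A+TNF. At day 14 there were 7 WT retinas after PBS and 6 after TNF, and at day 35 there were 6 after PBS and 9 after TNF, all in batch 1. For these 28 retinas the protocol text speaks of 2 days after injection, as for all others, and the days used here are those of the time labels. Batch 2 held retinas of day 2: 5 WT after PBS, 6 WT after IL1A+TNF, 6 Sarm1-/- after PBS and 6 Sarm1-/- after IL1A+TNF. The total count per retina ranged from 30014757 to 45779899 in batch 1 and from 42875980 to 79064488 in batch 2. Levels are given in CPM, a gene's counts scaled to the size of its library with TMM factors, and as CPM per kb of exon where genes are compared with each other. A log2 fold change is the difference of mean log2 CPM between 2 groups, adjusted for sex, so that −1 stands for a fall to 50% of the level. The FDR is limma's p adjusted over all genes tested in a comparison, and a gene with an FDR under 0.05 is said to have passed. All 32 members passed the filter on low counts in every fit.

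In WT PBS retinas of day 2 in batch 1, 29 of 32 members were above the median of all genes tested, which was 3.75 CPM per kb. The highest levels per kb were those of Slc17a7, which encodes the vesicular glutamate transporter of photoreceptors and bipolar cells, at 277 ± 27.5 CPM per kb (SD, n = 31), and of the ribbon-type complexin Cplx4 at 262 ± 21.2 CPM per kb (SD, n = 31). Then came Vamp2 (193), Syt1 (173), Snap25 (170), Stx3 (130), Syp (107) and Dnm1 (101), all in CPM per kb. The 3 members under the median of all genes were Sv2c (2.79), Stx1a (2.695) and Syn3 (1.10). Stx3 thus stood far above Stx1a, the syntaxin of conventional synapses, on the scale per kb. As a check of the tissue, markers of the retina's neurons were looked up, and no marker list had a gene at 0 in every retina.

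In the Sarm1-/- IL1A+TNF group, 3 of 6 libraries stood apart from the others. The mean log2 CPM of the 32 members was 6.25, 6.44 and 7.13 in the retinas of mice 61926, 61924 and 61765, and 7.61, 7.66 and 7.76 in those of mice 62221, 61564 and 61561. In Sarm1-/- PBS retinas it was 7.67 to 7.798, and in WT IL1A+TNF retinas of batch 2 it was 7.16 to 7.602. The retinas of mice 61926 and 61924 thus lay below every other retina of batch 2, and that of mouse 61765 lay just below the lowest WT IL1A+TNF retina. These 3 mice were the females of the group and the other 3 were the males, so sex and these libraries cannot be told apart. Results for the members that rest on Sarm1-/- IL1A+TNF retinas are therefore given with and without the 3 libraries, a comparison chosen after seeing the data. Counts of markers and of other genes in the genotype by treatment interaction are given with all libraries only. The 3 were picked for their low members in 1 group, and leaving them out raises that group by itself, so values without them show what rests on these libraries and are not read as a difference in the other direction. In a check of the sex labels, the male IL1A+TNF retina of mouse 62221 held 166 CPM of Xist, which females express, beside 77.2 CPM of the Y-linked Ddx3y, the 1 retina of 109 in which the higher of these 2 genes was not that of the labelled sex. The label was kept, as Ddx3y is expressed in males, and the male-only values of this group rest on this and 2 other retinas.

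At day 2 in batch 1, 26 of 32 members were lower and 1 was higher in IL1A+TNF than in PBS retinas, where 25.5% of the 19548 genes tested were lower and 24.9% were higher. The members' median log2 fold change was −0.23, against −0.02 over all genes tested, and single members ranged from −0.63 to 0.18. With edgeR and with DESeq2 the counts of members were also 26 lower and 1 higher, while the shares of all genes given above are limma's. When libraries were scaled by their totals alone, 23 members were lower and 3 were higher, while the genes tested moved to 3344 lower and 6881 higher. In a whole retina, fewer cells of a type and less RNA per cell cannot be told apart.

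**Figure D1:**
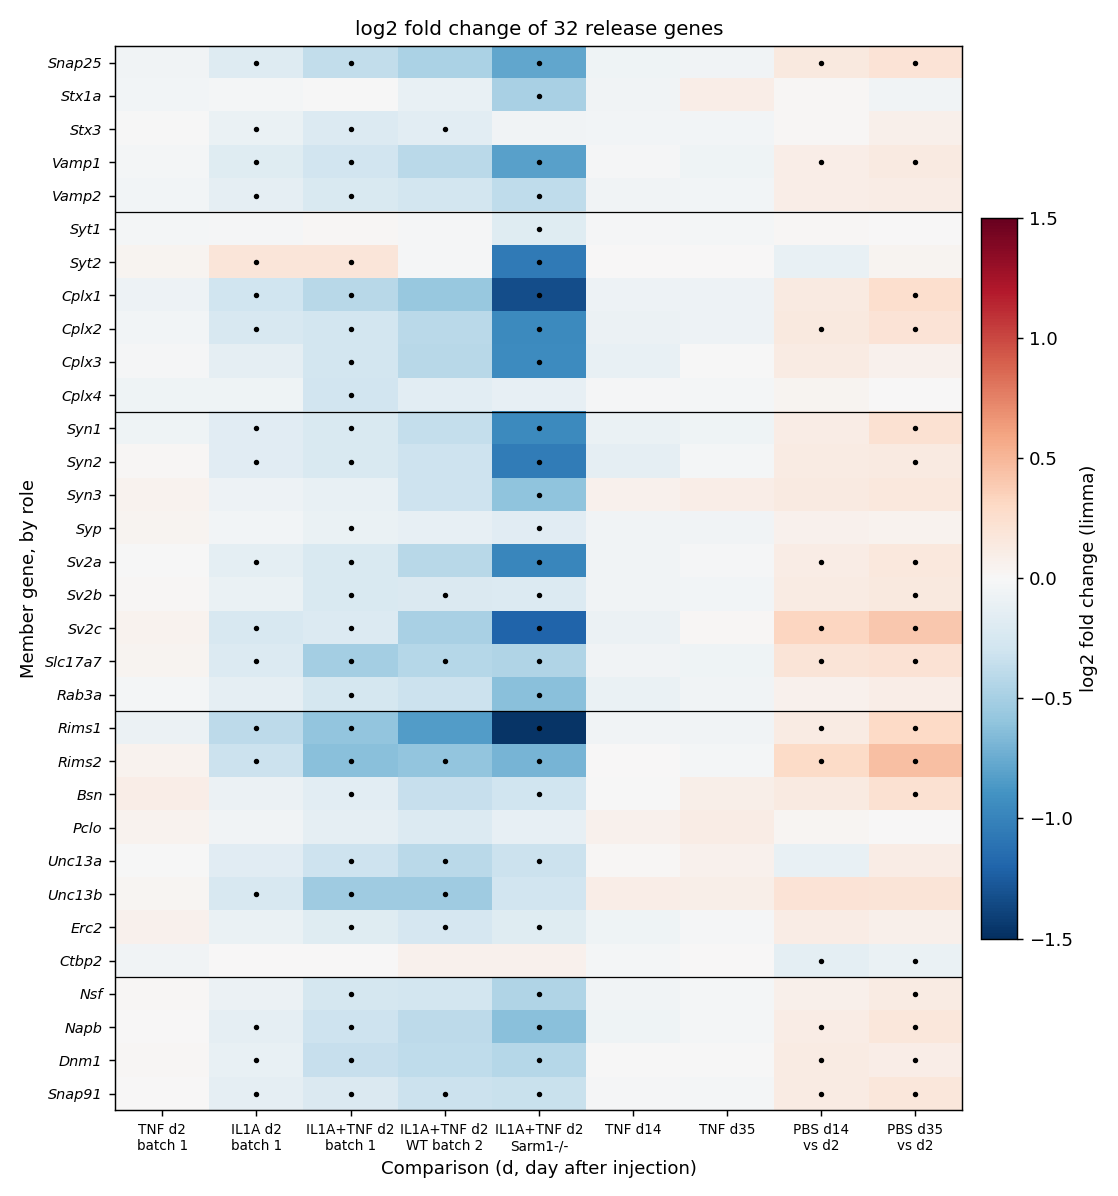
Heatmap of the log2 fold change of the 32 members (vertical axis, ordered by role) in 9 comparisons (horizontal axis), on a color scale from −1.5 to 1.5, with a dot where the FDR was under 0.05. Dots fill 27 of 32 members for IL1A+TNF against PBS in batch 1 and 0 of 32 for TNF against PBS at each of the 3 days.

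Of the 5 SNAREs, 4 were lower after IL1A+TNF (median −0.23). The vesicle SNARE Vamp1 had a log2 fold change of −0.28 and the membrane SNARE Snap25 one of −0.37. Vamp2 (−0.23) and the ribbon-type syntaxin Stx3 (−0.21) were also lower. Stx1a did not pass (−0.01, FDR 0.871), with 5 of 10 IL1A+TNF retinas on each side of the PBS mean.

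Among the 6 calcium sensors and complexins, 4 were lower and 1 was higher (median −0.28). Complexins bind assembled SNAREs and set when fusion proceeds, and all 4 were lower, with log2 fold changes of −0.42 for Cplx1, −0.28 for Cplx2, −0.27 for Cplx3 and −0.28 for Cplx4. Syt2 (ENSMUSG00000026452, chr1:134646677-134762593, plus strand of GRCm38) encodes a fast calcium sensor of the vesicle and was the 1 member that was higher. Its level in the 31 PBS retinas was 42.8 CPM at the lowest, 54.2 at the median and 68.2 at the highest, and in the 10 IL1A+TNF retinas it was 50.2, 60.1 and 72.2 CPM. These ranges overlapped over most of their length, and 8 of 10 IL1A+TNF retinas were above the PBS mean. The log2 fold change of Syt2 was 0.18 (SE 0.05, FDR 0.00323). With mouse as a fixed replicate block, which compares the 2 eyes of a mouse, 0 members were higher and 23 were lower, where 3471 of 19476 genes were higher and 3435 lower. Syt1, the other synaptotagmin of the set, did not pass (0.02, FDR 0.619).

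Of the 9 vesicle proteins, 8 were lower (median −0.23). Slc17a7 (ENSMUSG00000070570, chr7:45163949-45176142, plus strand) was at 1184, 1519 and 1760 CPM in PBS retinas (lowest, median, highest) and at 900.1, 964 and 1450 CPM in IL1A+TNF retinas. In 7 of 10 IL1A+TNF retinas it lay below the lowest PBS retina, and its log2 fold change was −0.51 (SE 0.06, FDR 7.9e-11). The synapsins tether vesicles in a reserve pool: Syn1 and Syn2 were lower (log2 fold change −0.23 each), and Syn3 did not pass (−0.11, FDR 0.193). Syn2 (ENSMUSG00000009394, chr6:115134902-115282006, plus strand) was at 28.5, 37.1 and 42.0 CPM in PBS retinas and at 28.3, 31.5 and 35.4 CPM in IL1A+TNF retinas. All 10 IL1A+TNF retinas were below the PBS mean of Syn2, but only 1 was below the lowest PBS retina. Sv2c (ENSMUSG00000051111, chr13:95954594-96132577, minus strand), a vesicle glycoprotein, was at 16.7, 27.4 and 33.9 CPM in PBS and at 18.7, 22.4 and 26.8 CPM in IL1A+TNF retinas. The 2 ranges overlapped, and the log2 fold change was −0.21 (SE 0.07, FDR 0.015). Also lower were the related glycoproteins Sv2a and Sv2b (log2 fold change −0.23 each), the vesicle GTPase Rab3a (−0.26) and Syp (−0.10), an abundant membrane protein of vesicles.

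At the active zone and ribbon, 6 of 8 members were lower (median −0.24), among them the 2 members with the smallest FDR. Rims2 and Rims1 encode scaffolds that join vesicles, calcium channels and priming factors. Rims2 (ENSMUSG00000037386, chr15:39198261-39684372, plus strand) was at 207, 251 and 346 CPM in PBS retinas and at 130, 157 and 224 CPM in IL1A+TNF retinas (lowest, median, highest). Rims1 (ENSMUSG00000041670, chr1:22286251-22805994, minus strand) was at 85.4, 98.3 and 114 CPM in PBS and at 48.4, 67.3 and 87.7 CPM in IL1A+TNF retinas. For each of the 2 genes 9 of 10 IL1A+TNF retinas lay below the lowest PBS retina, and the remaining retina overlapped the PBS range. The log2 fold change was −0.63 for Rims2 (SE 0.06, FDR 3.38e-13) and −0.60 for Rims1 (SE 0.06, FDR 1.85e-12). The priming factors Unc13b (−0.53) and Unc13a (−0.31) and the scaffolds Erc2 (−0.18) and Bsn (−0.16) were lower, while the large scaffold Pclo did not pass (−0.14, FDR 0.177). Ctbp2, the gene from which RIBEYE is made, did not pass either: it was at 281, 327 and 357 CPM in PBS and at 309.7, 327 and 363 CPM in IL1A+TNF retinas, with a log2 fold change of 0.01 (FDR 0.83). RIBEYE has a start of its own within Ctbp2, and counts per gene do not separate it from CtBP2.

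All 4 members of SNARE recycling and endocytosis were lower (median −0.29). Dnm1 (ENSMUSG00000026825, chr2:32308471-32353338, minus strand) encodes dynamin 1, the GTPase that pinches off endocytic vesicles. It was at 467, 525 and 584 CPM in PBS retinas and at 343, 415 and 514 CPM in IL1A+TNF retinas. Here too 9 of 10 IL1A+TNF retinas lay below the lowest PBS retina and 1 overlapped the PBS range. The log2 fold change of Dnm1 was −0.35 (SE 0.04, FDR 9.24e-12). The SNARE adaptor Napb (−0.31), the ATPase Nsf (−0.26), which takes used SNARE complexes apart, and the clathrin adaptor Snap91 (−0.22) were lower as well.

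**Figure D2:**
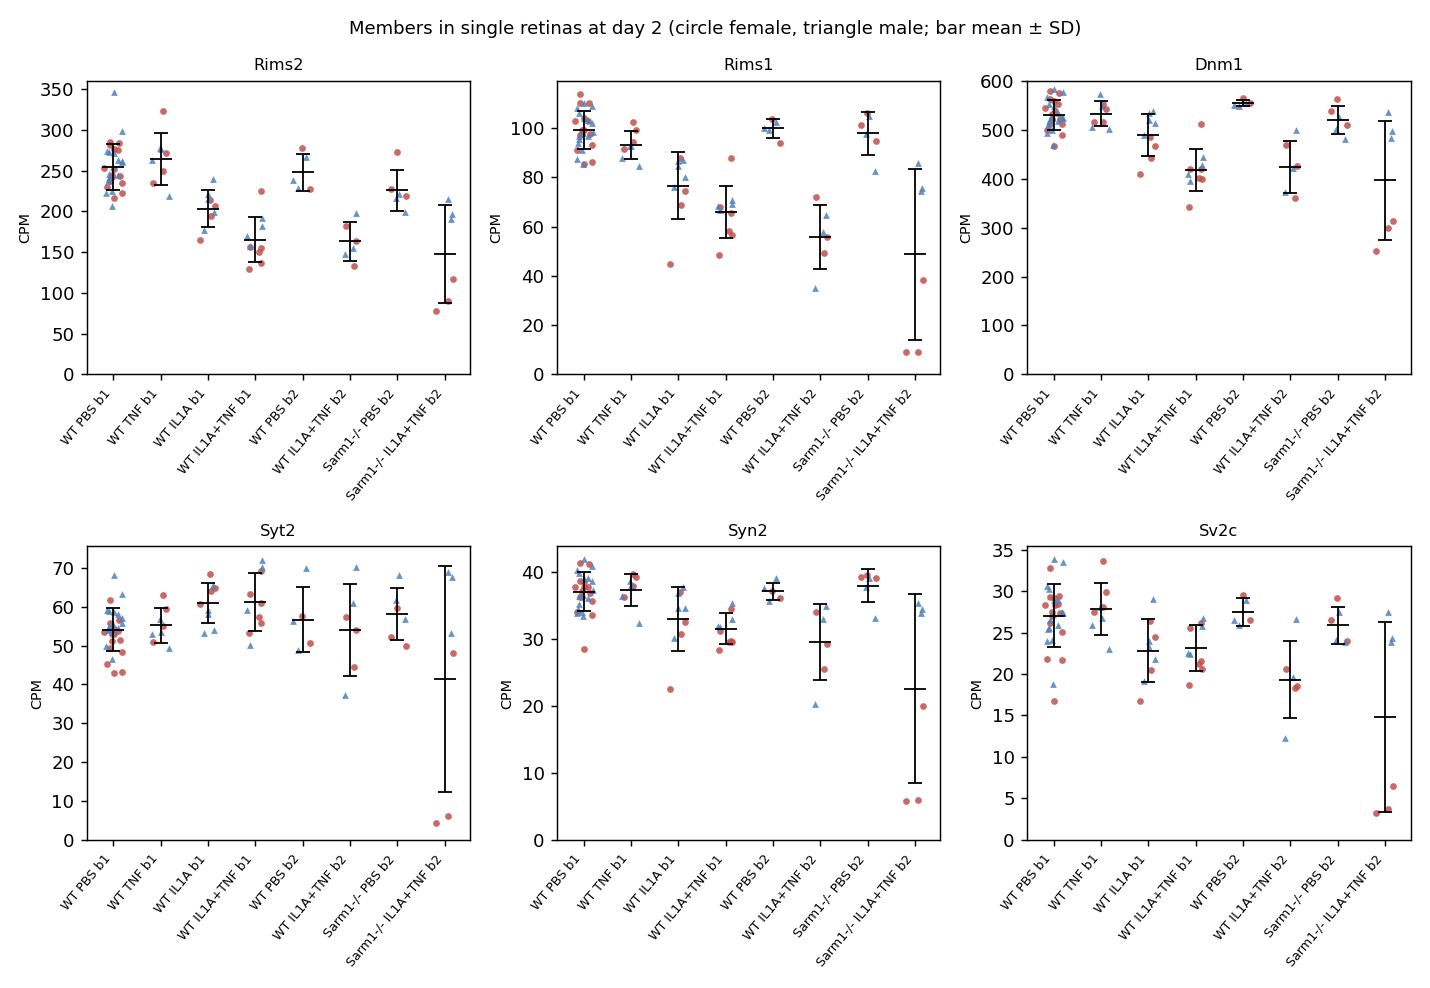
Level in CPM (vertical axes) of Rims2, Rims1, Dnm1, Syt2, Syn2 and Sv2c in each retina of the 8 groups of day 2 (horizontal axes), with circles for females, triangles for males and bars for the mean ± SD. For Rims2, Rims1 and Dnm1, 9 of 10 IL1A+TNF retinas of batch 1 sit below the lowest of 31 PBS retinas, and for all 6 genes the retinas of Sarm1-/- mice 61926 and 61924 sit at the bottom of their group.

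The members that mark a synapse type were compared as 2 subsets. Of 7 ribbon-type members (Stx3, Cplx3, Cplx4, Slc17a7, Ctbp2, Rims2 and Unc13b) 6 were lower after IL1A+TNF with a median of −0.28, and of 7 conventional-type members (Stx1a, Cplx1, Cplx2, Syn1, Syn2, Syn3 and Rims1) 5 were lower with a median of −0.23. The summed level of the ribbon-type members was 3367 to 4325 CPM in PBS and 2852 to 3712 CPM in IL1A+TNF retinas, and that of the conventional-type members was 475 to 658 and 407 to 541 CPM. Both sums overlapped between the groups. In the 8 mice of batch 1 with 1 PBS eye and 1 IL1A+TNF eye, the median log2 difference over the members was below 0 in 8 of 8 mice (−0.39 to −0.10).

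Markers of the cells that make these synapses moved in the same comparison, and their part in the members' values was not tested. Of the rod markers 11 of 12 were lower (median −0.63; Nrl −0.85). All 10 cone markers were lower (median −0.90; Arr3 −2.33, Kcne2 −1.37), with Opn1sw the most abundant and summed levels of 857 to 1240 CPM in PBS and 262 to 967 CPM in IL1A+TNF retinas. Of the bipolar markers, led by Trpm1, 10 of 12 were lower and 1 was higher (median −0.40; Vsx1 −0.61, Isl1 −0.41, Grik1 0.16), with sums of 1351 to 1950 and 1039 to 1688 CPM. Amacrine markers were lower in 10 of 11 (median −0.23; Slc6a9 −0.39, Gad1 −0.31), with Pax6 the most abundant and sums of 1192 to 1451 and 917 to 1276 CPM. Ganglion cell markers were lower in 11 of 12 (median −0.28; Rbpms2 −0.49, Rbpms −0.30), with Nefl the most abundant and sums of 679 to 953 and 608 to 778 CPM. Rod, cone and bipolar medians thus lay further below 0 than the members' median, and the amacrine and ganglion cell medians lay close to it. Of 6 horizontal cell markers, led by Tpm3, 3 were lower and 2 higher (median −0.20; Sept4 −0.55, Calb1 −0.37, Tpm3 0.57, Onecut2 0.29).

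Glial and immune markers moved as well. Of 10 Müller glia markers 4 were lower and 4 higher (median −0.07; Glul −0.99, Rlbp1 −0.70, Vim 0.87, Kcnj10 0.48), and of 6 astrocyte markers 2 were lower and 3 higher (median 0.23; Pdgfra −0.52, S100b −0.33, Gfap 1.44, Aldh1l1 0.74). All 12 myeloid markers were higher (median 1.56; Ptprc 2.73, Laptm5 1.96), with Ctss the most abundant and sums of 91.3 to 234 CPM in PBS and 366 to 648 CPM in IL1A+TNF retinas. Neutrophil markers were higher in 6 of 7 tested (median 3.59; Csf3r 3.79, S100a8 3.92), with sums of 2.55 to 130 and 119 to 748 CPM, while Ly6g was under 0.1 CPM on average. Monocyte markers, led by Fn1, were higher in 7 of 8 (median 2.05; Fn1 1.53, F13a1 2.56). Of 8 pigment epithelium markers 7 were lower (median −1.65; Rgr −2.31, Ttr −2.04), with Tyrp1 the most abundant. None of the 7 lens markers tested passed with limma (median 1.46), and their sum, mostly Cryaa, ranged from 0.722 to 4230 CPM over PBS retinas. Without the 5 retinas with a lens sum over 1000 CPM, 25 members were lower and 1 was higher after IL1A+TNF, where 4414 of 19585 genes were lower and 4840 higher.

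Other genes of the same pathways were taken from lists by function. Of 47 other exocytosis genes 28 were lower and 8 higher (median −0.15): the vesicle protein gene Syngr1 had a log2 fold change of −0.33 (FDR 1.09e-10), while Snap29 (0.40) and Syngr3 (0.55) were higher. Of 23 other genes of vesicle endocytosis 11 were lower and 5 higher (median −0.08), with Sh3gl2 (−0.39) and Bin1 (−0.26) lower and Picalm (0.31) and Hspa8 (0.27) higher. Among 6 other vesicular transporters 3 were lower and 1 higher (median −0.10; Slc17a8 −0.37, Slc32a1 −0.12, Slc17a5 0.14). The members' median was further below 0 than the medians of these 3 lists. Of 10 other genes of the photoreceptor terminal and its ribbon contacts 7 were lower and 1 higher (median −0.25; Ppef2 −0.87, Lrit2 −0.55, Elfn1 0.09). Of 10 postsynaptic genes of ON bipolar cells 8 were lower (median −0.32; Gnb5 −0.38, and −0.43 for Grm6, the glutamate receptor opposite the photoreceptor ribbon). Grm6, Trpm1 and a few other genes are in 2 of these lists.

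Comparison of each cytokine alone with PBS asked which of them the members respond to, and these comparisons share the 31 PBS retinas. After IL1A, 17 of 32 members were lower and 1 was higher, where 9.45% of all genes tested were lower and 12% were higher. The members' median log2 fold change was −0.13, against −0.01 over all genes. By role, 4 of 5 SNAREs, 2 of 6 sensors and complexins, 5 of 9 vesicle proteins, 3 of 8 active zone and ribbon members and 3 of 4 members of recycling and endocytosis were lower. Conventional-type members were lower in 5 of 7 (median −0.17) and ribbon-type members in 4 of 7 (median −0.13). Rims1 was at 44.8, 79.97 and 87.8 CPM in the 9 IL1A retinas (lowest, median, highest) and Rims2 at 164, 206 and 239 CPM. For Rims1 6 of 9 IL1A retinas and for Rims2 5 of 9 were below the lowest PBS retina, and the others overlapped the PBS range. The log2 fold change was −0.39 for Rims1 (SE 0.06, FDR 1.83e-06), −0.32 for Rims2 (SE 0.06, FDR 7.83e-05) and −0.30 for Cplx1 (SE 0.06, FDR 7.3e-05). Dnm1 was lower (−0.12), with 411, 490 and 540 CPM, and only 2 of 9 retinas were below the lowest PBS retina.

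Syt2 was the member that was higher after IL1A, with 53.4, 60.7 and 68.5 CPM and a log2 fold change of 0.18 (FDR 0.0121). Syn2 was at 22.5, 34.5 and 37.8 CPM and Sv2c at 16.7, 23.3 and 29.1 CPM, and both had passed as lower. The lowest Rims1 and Syn2 values came from mouse 60637. Without its IL1A retina 8 members were lower, where the genes tested fell from 1847 to 1091 lower, and over the other 8 retinas left out in turn the count was 14 to 19. With mouse as a fixed replicate block, 11 members were lower and 0 were higher after IL1A, where 710 of 19476 genes were lower and 1279 higher. In the 7 mice with 1 IL1A eye and 1 PBS eye, the members' median log2 difference was below 0 in 5 mice (−0.45 to 0.03). Markers moved here too, and their part was not tested: 9 of 12 rod, 7 of 10 cone, 9 of 11 amacrine and 9 of 12 ganglion cell markers were lower, and 6 of 7 neutrophil markers were higher.

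After TNF alone, limma called 0 of 32 members at day 2, where 0.655% of all genes passed. At an unadjusted p under 0.05 the count was also 0, where 7.66% of all genes were at that p, and edgeR and DESeq2 called 0 members. The log2 fold changes ran from −0.09 to 0.10 with a median of 0.00. In the 8 TNF retinas Rims2 was at 219, 268 and 323 CPM, Rims1 at 84.6, 92.8 and 102 CPM and Dnm1 at 503, 530 and 575 CPM (lowest, median, highest). All these values but 1 fell within the range of the PBS retinas, the exception being a Rims1 value of 84.6 CPM just under the lowest PBS value of 85.4 CPM. Syt2 was at 49.5, 54.3 and 63.1 CPM, Syn2 at 32.3, 38.0 and 39.6 CPM and Sv2c at 23.02, 27.8 and 33.7 CPM, all within the PBS range. In the 8 mice with 1 TNF eye and 1 PBS eye, the members' median log2 difference was below 0 in 5 (−0.14 to 0.12). Of the marker lists, 4 of 12 myeloid markers were higher after TNF and 0 of the rod, cone, amacrine and ganglion cell markers passed.

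To see what TNF adds to IL1A, retinas given both were tested against those given IL1A. In it, 7 of 32 members were lower and 0 were higher, where 4.68% of all genes were lower and 5.39% were higher. These were Dnm1 (−0.23, FDR 0.000718), Cplx4 (−0.22), Slc17a7 (−0.30), Rims2 (−0.31), Napb (−0.17), Nsf (−0.18) and Snap25 (−0.17), and the median over the members was −0.10. Of the ribbon-type members 3 of 7 were lower (median −0.22), and of the conventional-type members 0 of 7 (median −0.05). In the same comparison 10 of 10 cone and 9 of 12 rod markers were lower, against 1 of 11 amacrine and 1 of 12 ganglion cell markers, and their part was not tested. The IL1A by TNF interaction, which asks whether the effect of the pair differs from the sum of the single effects on the log2 scale, was lower in 3 members and higher in 0, where 1.82% of all genes were lower and 1.78% higher. These members were Dnm1 (−0.24, FDR 0.0188), Rims2 (−0.36, FDR 0.0334) and Slc17a7 (−0.34, FDR 0.0395), with a median over the 32 members of −0.10. For each of them the fall after IL1A+TNF was larger than the sum of the 2 single effects. With mouse as a fixed replicate block, limma called 0 members in both comparisons. There were then 4 and 3 members at an unadjusted p under 0.05, all lower, where 5.46% and 4.99% of all genes were lower at that p. Without that block edgeR called 7 and 3 members and DESeq2 called 9 and 3, and no share of all genes is given for these tools. Without a filter on low counts the interaction was lower in 1 member, where 219 of 30288 genes were. With sample quality weights, chosen after seeing the data, 15 members were lower in IL1A+TNF against IL1A, where 1734 of 19548 genes were, and 5 in the interaction, where 921 genes were.

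Whether the IL1A+TNF effect differed between females and males was tested with an interaction term. Limma called 0 of 32 members and 0% of all genes, with 1 member, Sv2b (−0.20), at an unadjusted p under 0.05, as were 6.47% of all genes. The count was 0 with edgeR and with DESeq2, and the members' median was −0.07. This test was done in batch 1, in 6 female and 4 male IL1A+TNF retinas.

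In WT retinas of batch 2, which came from other mice, 8 of 32 members were lower and 0 were higher after IL1A+TNF, where 7.55% of all genes were lower and 13.3% were higher. The members' median log2 fold change was −0.33, against −0.02 over all genes. This fit held all 23 retinas of batch 2, so the 3 Sarm1-/- libraries that stood apart entered its estimate of the spread. Without them 27 members were lower, where 19.9% of all genes were, and in the 11 WT retinas alone 25 were lower, where 18.1% of all genes were, both with 0 members higher. These 2 fits were chosen after seeing the data. In the fit of all 23, the 8 were the priming factors Unc13a (−0.41, FDR 0.0112) and Unc13b (−0.53, FDR 0.0143), with Stx3, Slc17a7 (−0.43), Sv2b, Snap91, Rims2 (−0.59, FDR 0.0409) and Erc2 (−0.25, FDR 0.0431). Ribbon-type members were lower in 4 of 7 (median −0.42) and conventional-type members in 0 of 7 (median −0.36), while in the WT retinas alone 6 of 7 of each type were lower (medians −0.44 and −0.40). Rims2 was at 228, 229, 238, 267 and 278 CPM in the 5 PBS retinas and at 133, 160 and 197 CPM in the 6 IL1A+TNF retinas (lowest, median, highest). Rims1 was at 93.9 to 104 CPM in PBS retinas and at 35.0, 56.8 and 72.1 CPM after IL1A+TNF, and Dnm1 was at 549 to 566 and at 361, 424 and 500 CPM. For these 3 genes the groups did not overlap, and 18 of 32 members were lower without overlap, as were 10.5% of all genes tested. Rims1 did not pass in the fit of all 23 retinas (−0.83, SE 0.41, FDR 0.151), and it was lower in the WT retinas alone (−0.88, SE 0.14, FDR 0.000753). Likewise Dnm1 missed the threshold with all 23 (−0.38, FDR 0.0645) and was lower in the WT retinas alone (−0.39, FDR 0.00328).

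In this batch Syt2 was at 48.8, 50.7, 56.3, 57.7 and 70.1 CPM in PBS and at 37.3, 55.6 and 70.4 CPM in IL1A+TNF retinas, which overlapped, and its log2 fold change was −0.02 (FDR 0.981). The count of 8 in the fit of all 23 retinas also depended on single WT libraries. It was 2 without the PBS retina of mouse 61720, 61722 or 61927, it was 3 without the IL1A+TNF retina of mouse 62224, and it was 4 without that of mouse 61719 or 61721, while 962 to 1195 genes were lower in these 6 fits, against 1485 with all 23. With mouse as a fixed replicate block it was 1 (751 genes lower), with edgeR 8 (1563 genes), with DESeq2 10 (2036 genes) and with sample quality weights 21 (3521 genes). In the 5 mice with both eyes in this comparison, the members' median log2 difference was below 0 in 5 of 5 (−0.56 to −0.22). Beside the members, in the fit of all 23, 8 of 12 rod (median −0.45), 7 of 10 cone (−0.83), 1 of 11 amacrine (−0.40) and 1 of 12 ganglion cell markers (−0.38) were lower. There 12 of 12 myeloid markers (median 1.82; Ptprc 3.30), 4 of 6 neutrophil markers tested (4.35; Csf3r 4.87) and 5 of 8 monocyte markers (2.46) were higher. Myeloid markers summed to 115 to 195 CPM in PBS and 542 to 851 CPM in IL1A+TNF retinas, and neutrophil markers to 5.87 to 21.8 and 149 to 675 CPM. For all these markers their part was not tested.

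For the Sarm1-/- mice the 81 retinas of day 2 from both batches were fitted together, with a term for batch. Sarm1 itself was at 106 to 126 CPM in WT PBS retinas of batch 2 and at 84.1 to 110 CPM after IL1A+TNF. In Sarm1-/- retinas it was at 37.3 to 53.2 CPM after PBS and at 26.2 to 46.8 CPM after IL1A+TNF, so the genotypes did not overlap. Between Sarm1-/- and WT PBS retinas limma called 0 of 32 members, where 0.0397% of all genes passed, and the count at an unadjusted p under 0.05 was 0, where 4.88% of all genes were at that p. EdgeR and DESeq2 also called 0 members, and the median was 0.04. Without the 3 libraries limma again called 0 (0 at an unadjusted p under 0.05, where 6.65% of all genes were at that p). In the 6 Sarm1-/- PBS retinas Rims2 was at 199, 220 and 273 CPM, Rims1 at 82.5, 99.3 and 106 CPM and Dnm1 at 482, 519 and 564 CPM (lowest, median, highest). Syt2 was at 49.8, 58.2 and 68.2 CPM, Syn2 at 33.1, 39.1 and 39.5 CPM and Sv2c at 23.9, 25.3 and 29.2 CPM. These ranges overlapped those of the WT PBS retinas of batch 2, which were 35.7 to 39.0 CPM for Syn2 and 25.9 to 29.6 CPM for Sv2c.

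After IL1A+TNF, 27 of 32 members were lower and 0 were higher than in Sarm1-/- PBS retinas, where 22.2% of all genes were lower and 21.3% were higher. The members' median was −0.46, against 0.01 over all genes. The smallest FDRs were those of Vamp1 (−0.81, FDR 2.69e-07), Rims1 (−1.47, FDR 8.5e-07) and Cplx1 (−1.32, FDR 1.25e-06), and Unc13b, Cplx4, Ctbp2, Stx3 and Pclo did not pass. Vamp1 was the 1 member whose 6 IL1A+TNF retinas all lay below the 6 Sarm1-/- PBS retinas, as did those of 2.25% of all genes tested. All 7 conventional-type members were lower with a median of −0.96, and 3 of 7 ribbon-type members with a median of −0.28. Without the 3 libraries that stood apart, limma called 0 of 32 members, where 2.81% of all genes passed. At an unadjusted p under 0.05 there were then 3 members, all lower, where 5.82% of all genes were lower at that p, and the median was −0.08. Conventional-type members then ran from −0.32 (Rims1) to −0.08 (Syn3), and ribbon-type members from −0.18 (Rims2) to 0.04 (Ctbp2). No other tool was run on that subset. Fewer members than 27 were also lower with sample quality weights, where Syp, Bsn and Syt1 turned positive. The same held when only the IL1A+TNF retinas of mice 61926 and 61924 were left out. Both alternatives were chosen after seeing the data, and their counts are given below. In female retinas alone, 29 members were lower, where 26.8% of all genes were, and the median was −0.87. In male retinas alone limma called 0 members, where 0.248% of all genes passed, with 0 at an unadjusted p under 0.05, where 7.22% of all genes were at that p, and a median of −0.06.

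A genotype by treatment interaction asked whether the IL1A+TNF effect differed between Sarm1-/- and WT retinas. With all libraries, 10 of 32 members passed, all lower, where 7.24% of all genes were lower and 1.51% were higher. The members' median was −0.20, against 0.00 over all genes. Of the conventional-type members 6 of 7 passed (median −0.70), and of the ribbon-type members 0 of 7 (median 0.04). Without the 3 libraries that stood apart, limma called 0 of either type. Conventional-type members then ran from −0.10 (Stx1a) to 0.36 (Rims1), and ribbon-type members from 0.01 (Ctbp2) to 0.48 (Unc13b). With all libraries again, the members that passed were spread over the roles as follows. By role, 2 of 5 SNAREs, 3 of 6 sensors and complexins, 4 of 9 vesicle proteins, 1 of 8 active zone and ribbon members and 0 of 4 members of recycling and endocytosis passed.

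The smallest FDRs of this interaction were those of Syt2, Syn2 and Sv2c. In the IL1A+TNF retinas of mice 61926, 61924, 61765, 62221, 61564 and 61561, in this order, Syt2 was at 4.22, 6.05, 48.2, 53.4, 69.0 and 67.7 CPM. Syn2 was at 5.85, 5.75, 20.03, 33.8, 34.5 and 35.4 CPM, and Sv2c at 3.69, 3.27, 6.54, 24.4, 23.8 and 27.4 CPM. The first 2 retinas were far below the other 4 for Syt2 and Syn2, and the first 3 were far below the other 3 for Sv2c. The 3 males overlapped the Sarm1-/- PBS range for each gene. For Syn2 this overlap rested on the PBS retina of mouse 61561 at 33.1 CPM. The other Sarm1-/- PBS retinas were at 37.7 to 39.5 CPM. In WT IL1A+TNF retinas of batch 2 Syn2 was at 20.3, 31.1 and 34.9 CPM and Sv2c at 12.3, 19.1 and 26.6 CPM (lowest, median, highest). The interaction was −1.19 for Syt2 (SE 0.29, FDR 0.0104), −0.80 for Syn2 (SE 0.20, FDR 0.0126) and −0.91 for Sv2c (SE 0.24, FDR 0.0142). The other 7 that passed were Stx1a (−0.44), Vamp1 (−0.50), Cplx1 (−0.87), Syn1 (−0.70), Sv2a (−0.70), Cplx2 (−0.65) and Rims1 (−0.81). In the same 6 retinas and the same order Rims1 was at 9.14, 8.96, 38.5, 75.6, 74.5 and 85.9 CPM. Rims2 was at 77.4, 90.4, 117, 197, 190 and 215 CPM, and Dnm1 was at 254, 300.2, 313, 498, 485 and 537 CPM, again with the first 3 below the other 3.

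Without the 3 libraries the interaction was called by limma in 0 of 32 members, where 0.401% of all genes passed. There were 16 members at an unadjusted p under 0.05, all higher, where 7.71% of all genes were higher and 8.52% lower at that p. Of the 10 above Rims1 (0.36) was the 1 among these 16. The median was 0.18. Leaving out mouse 61926 or mouse 61924 alone, both eyes, also brought the count to 0. It was 11 without mouse 61765, 15 without 61564, 16 without 62221 and 18 without 61561. Over all genes 0 passed without mouse 61924, 13 were lower and 1 was higher without mouse 61926, and 1628 to 2278 were lower without 1 of the other 4. In female retinas alone 22 members were lower, where 15.6% of all genes were, and the median was −0.63. In male retinas alone 0 were lower and 1 was higher, Dnm1 (0.36, FDR 0.0188), where 2.23% of all genes were lower and 0.896% higher. With edgeR the count was 0, and with DESeq2 it was 1, for which no share of all genes is given. EdgeR had 11 members lower and 1 higher at an unadjusted p under 0.05, where 9.95% of all genes were lower and 8.77% higher at that p. Batch 2 alone gave 0 with limma (0 at that p, where 5.72% of all genes were). Sample quality weights gave 0, with 7 members at that p, all higher, where 7.26% of all genes were higher. Mouse as a fixed replicate block gave 0, with 15 members at that p, all lower, where 10.7% of all genes were lower.

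Within IL1A+TNF retinas, 12 of 32 members were lower and 1 was higher in Sarm1-/- than in WT, where 10.8% of all genes were lower and 4.04% were higher. The 12 held all 7 conventional-type members (median −0.70), with Syn1 (−0.70, FDR 0.003) and Syt2 (−1.03, FDR 0.00345) at the smallest FDRs, and also Sv2c, Vamp1, Sv2a and Cplx3. Stx3 was the member that was higher (0.15, FDR 0.0181). Without the 3 libraries limma called 0 members lower and 6 higher, where 2.12% of all genes were lower and 2.26% were higher. There were 0 members lower and 23 higher at an unadjusted p under 0.05, where 11.2% of all genes were higher at that p. Conventional-type members then ran from 0.01 (Stx1a) to 0.44 (Rims1). Since the 3 were picked for their low members, these higher values are not read as a difference between the genotypes. In female retinas alone 23 members were lower, where 19% of all genes were. In male retinas alone 0 were lower and 3 were higher (Napb 0.29, Rims1 0.47 and Snap25 0.36), where 1.56% of all genes were lower and 1.17% higher. Leaving out both eyes of mouse 61926 or of mouse 61924 gave 0 lower and 0 higher (323 and 223 genes lower), and leaving out mouse 61561 gave 20 lower (2952 genes). EdgeR called 1 lower and 1 higher, where 539 of 20154 genes were lower, and DESeq2 3 lower and 1 higher, where 902 were lower. Batch 2 alone, which holds every Sarm1-/- retina, gave 0 lower and 0 higher with limma, where 96 of 19668 genes were lower and 33 higher. At an unadjusted p under 0.05 it had 1 member higher and 0 lower, where 7.4% of all genes were higher and 7.5% lower. Sample quality weights also gave 0 lower and 0 higher, where 343 of 20154 genes were lower and 153 higher, with 11 members higher and 0 lower at that p, where 7.14% of all genes were higher.

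Cell markers moved with the members across these 6 libraries, and their part was not tested. In the order of mice 61926, 61924, 61765, 62221, 61564 and 61561, the conventional-type members summed to 90.6, 105, 301, 491, 505 and 555 CPM. The summed amacrine markers were 283, 223, 911, 1153, 1151 and 1235 CPM, and the summed ganglion cell markers 145, 171, 351, 677, 747 and 793 CPM. All 3 sums were lowest in the first 2 retinas. In Sarm1-/- PBS retinas the amacrine markers summed to 1269 to 1381 CPM and the ganglion cell markers to 763 to 860 CPM. Ribbon-type members summed to 2716, 3131, 2738, 3551, 3782 and 4034 CPM in the same order. This sum, with Slc17a7 the most abundant gene, differed less between the libraries. Its single members differed from each other. In female retinas alone, their log2 fold changes against PBS in Sarm1-/- ran from −1.86 (Cplx3) to 0.10 (Ctbp2). Bipolar markers summed to 527, 557, 1339, 1642, 1548 and 1751 CPM, cone markers to 273, 267, 257, 688, 694 and 878 CPM, and neutrophil markers to 606, 667, 320.5, 132, 230.5 and 103 CPM.

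**Figure D3:**
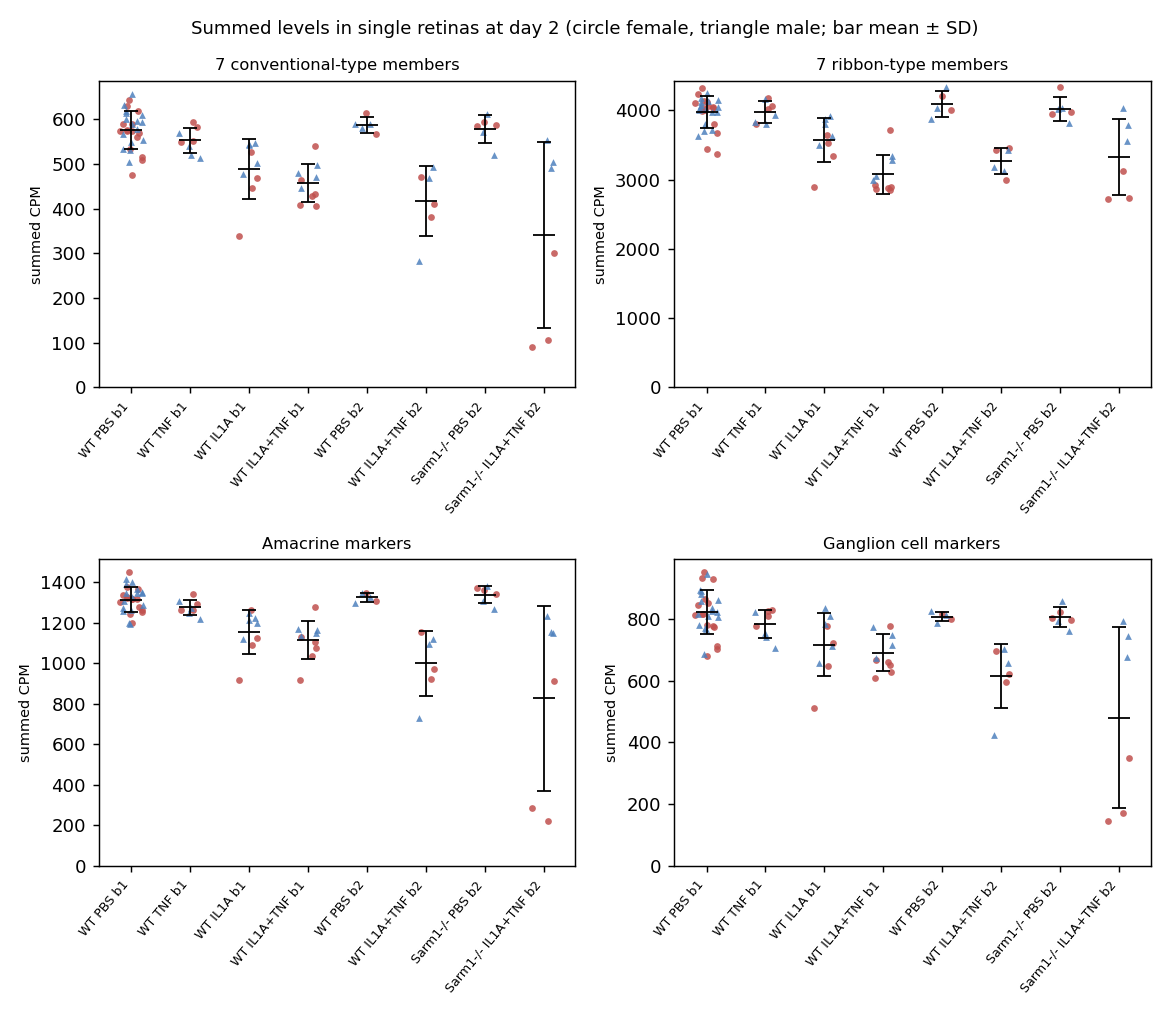
Summed CPM (vertical axes) of 7 conventional-type members, 7 ribbon-type members, amacrine markers and ganglion cell markers in each retina of the 8 groups of day 2 (horizontal axes), with 1 point for each retina and bars for the mean ± SD. In the retinas of Sarm1-/- mice 61926 and 61924 the conventional-type members sum to 90.6 and 105 CPM, against 491 to 555 CPM in the 3 males of that group.

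In the genotype by treatment interaction, 9 of 11 amacrine, 10 of 12 ganglion cell and 3 of 12 bipolar markers were lower, against 0 of 12 rod and 0 of 10 cone markers, with 1 rod marker higher. Of the 47 other exocytosis genes 19 were lower. Over all genes 7.24% were lower and 1.51% were higher. These counts are from the fit with all libraries, and without the 3 that stood apart 0.401% of all genes passed. The fellow PBS eyes give the Sarm1-/- IL1A+TNF libraries a control within the mouse. There the median log2 difference over the members was −1.30, −0.91 and −0.63 in mice 61926, 61924 and 61765, and −0.17, −0.10 and 0.09 in mice 62221, 61564 and 61561. In mouse 61926 32 of 32 members were lower in the IL1A+TNF eye, and in mouse 61561 29 of 32 were higher.

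TNF was also compared with PBS at later times. At day 14, limma called 0 of 32 members and 0% of 18023 genes, with 4 members at an unadjusted p under 0.05, as were 4.65% of all genes, and a median of −0.05 against 0.00 over all genes. The 4 were Syn2 (−0.14, p 0.004), Syn1 (−0.10), Cplx3 (−0.11) and Snap25 (−0.07), and 26 of 32 members had a negative value. EdgeR and DESeq2 called 0, with 3 and 4 members at that p, as were 2.64% and 2.62% of all genes. Rims2 was at 267, 316 and 326 CPM in the 7 PBS retinas and at 258, 317 and 323 CPM in the 6 TNF retinas (lowest, median, highest). The 2 groups overlapped almost fully for this gene. Syn2 was at 36.1, 40.4 and 41.9 CPM in PBS and at 34.7, 36.1 and 40.1 CPM in TNF retinas, which overlapped too. In the 4 mice with both eyes in this comparison, the members' median log2 difference was below 0 in 4 of 4 (−0.11 to −0.04). At day 35, limma called 0 members and 0% of 17821 genes, with 2 members, Cplx1 and Cplx2 (−0.08 each), at an unadjusted p under 0.05, as were 4.89% of all genes, and a median of −0.03, and edgeR and DESeq2 called 0 with 2 members each at that p, as were 4.19% and 4.19% of all genes. Here the median log2 difference between the eyes was below 0 in 3 of 6 mice (−0.11 to 0.04). Rims2 was at 302, 338 and 415 CPM in PBS and at 305, 335 and 371 CPM in TNF retinas, and Rims1 at 109.8, 123 and 135 CPM and at 109.9, 118 and 126 CPM. All TNF values of both genes lay within the PBS range.

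PBS retinas of WT mice were compared between days, to see how the members stand in eyes given no cytokine themselves. Many of these eyes came from mice whose other eye was given a cytokine. Among mice with both eyes sequenced, the other eye at day 2 held IL1A+TNF in 8, IL1A in 7 and TNF in 8. It held TNF in 4 such mice at day 14 and in 6 at day 35. Relative to day 2, 11 of 32 members were higher and 1 was lower at day 14, where 8.68% of all genes were higher and 10.5% were lower, and the members' median was 0.11 against 0.01 over all genes. The 7 PBS retinas of day 14 came from 6 mice, with both eyes of mouse 59710, and no mouse block was used. Without its left or right eye 9 or 10 members were higher (1435 or 1465 genes), and without the retina of mouse 59830 there were 6 (1311 genes), against 1682 genes with all retinas. At day 35, 17 members were higher and 1 was lower, where 15.4% of all genes were higher and 17.4% were lower, and the median was 0.14 against 0.00. Both comparisons share the 31 PBS retinas of day 2. Time after the injection, age and the cytokine given to the other eye cannot be told apart in them. Rims2 had the smallest FDR at both times, with a log2 fold change of 0.29 at day 14 (FDR 0.000525) and of 0.45 at day 35 (FDR 5.63e-07). Its median rose from 251 CPM at day 2 to 316 and 338 CPM, and the day 35 range of 302 to 415 CPM overlapped that of day 2, 207 to 346 CPM. Rims1 was at 100.4, 106 and 118 CPM at day 14 and at 109.8, 123 and 135 CPM at day 35, against 85.4, 98.3 and 114 CPM at day 2. Its log2 fold change at day 35 was 0.30 (FDR 6.22e-06).

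Among the other members that were higher at day 35 were the clathrin adaptor Snap91 (0.16), Syn1 (0.23), Sv2c (0.41), Cplx1 (0.26), Snap25 (0.21) and Slc17a7 (0.22). Snap91 was at 442 to 465 CPM at day 35 and at 360.3 to 437 CPM at day 2, and it was the 1 member whose day 35 retinas were all above those of day 2, as were those of 0.614% of all genes tested. Ctbp2 was the member that was lower, with −0.15 at day 14 (FDR 0.00102) and −0.10 at day 35 (FDR 0.0331). Without a filter on low counts it was not called at day 35. It was at 287, 303 and 312 CPM at day 35, within the day 2 range of 281 to 357 CPM. With libraries scaled by their totals alone, 5 members were higher and 2 lower at day 14, and 11 were higher and 1 lower at day 35. The genes tested then moved from 1682 higher and 2040 lower to 1103 and 2538 at day 14, and from 2978 and 3380 to 1400 and 4556 at day 35. Over the same days rod markers (11 of 12), cone markers (7 of 10), amacrine markers (8 of 11) and ganglion cell markers (8 of 12) were higher at day 35, and 12 of 12 myeloid and 5 of 7 neutrophil markers were lower. Their part in the members' values was not tested.

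Because most members fell together after IL1A+TNF, the bases around their starts were read from RefSeq (GRCm38.p6), from 250 bases before to 50 after each start. Windows were found for 27 of 32 members, 35 windows in all, and not for Cplx4, Rims2, Snap25, Vamp2 and Syn3. Their median GC content was 62.0% (35.33% to 74.33%), against 52.67% over all 32851 windows. Both strands were searched for 4 motifs spelled out here, which do not contain one another. GGGCGG (a GC box) was in 20 of 35 windows, of 19 members, and in 35.66% of all windows. TAATCC (the core bound by CRX in photoreceptors) was in 5 of 35, of the 4 members Ctbp2, Stx3, Sv2b and Syp, and in 7.062% of all. TGCGCATGC (an NRF1 core) was in 2 of 35, those of Bsn and Syn1, and in 1.519% of all, and TGACGTCA (a CRE) was in 1, that of Syn1, and in 1.79% of all. These are matches of letters, not tests of binding. Printed here are the windows of Syn1, which holds an NRF1 core and a CRE, of Rims1 and Dnm1, which had the smallest FDRs among members with a window and hold 3 and 1 GC boxes, and of Stx3, the ribbon-type syntaxin, which holds 1 CRX core. All 4 are on the minus strand, at chrX:20920869-20921168 for Syn1, chr1:22806109-22806408 for Rims1, chr2:32353280-32353579 for Dnm1 and chr19:11819354-11819653 for Stx3, and capitals mark the motifs, on either strand.
Syn1: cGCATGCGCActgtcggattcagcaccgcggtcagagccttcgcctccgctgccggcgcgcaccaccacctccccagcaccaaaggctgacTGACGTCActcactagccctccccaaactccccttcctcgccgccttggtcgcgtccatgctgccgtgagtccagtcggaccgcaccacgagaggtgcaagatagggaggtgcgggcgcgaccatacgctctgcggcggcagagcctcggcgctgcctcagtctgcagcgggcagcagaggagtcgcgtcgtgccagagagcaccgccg
Rims1: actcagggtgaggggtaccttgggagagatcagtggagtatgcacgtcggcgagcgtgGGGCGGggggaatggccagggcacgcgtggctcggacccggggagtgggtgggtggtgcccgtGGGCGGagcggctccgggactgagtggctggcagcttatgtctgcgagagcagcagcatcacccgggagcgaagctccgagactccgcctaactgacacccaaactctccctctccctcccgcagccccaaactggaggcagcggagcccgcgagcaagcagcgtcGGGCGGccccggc
Dnm1: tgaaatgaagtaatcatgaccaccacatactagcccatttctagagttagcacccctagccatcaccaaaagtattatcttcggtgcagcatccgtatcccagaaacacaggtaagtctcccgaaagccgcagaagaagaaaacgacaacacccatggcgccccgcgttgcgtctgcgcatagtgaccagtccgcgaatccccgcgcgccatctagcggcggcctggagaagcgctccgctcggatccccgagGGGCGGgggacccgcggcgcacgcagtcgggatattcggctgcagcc
Stx3: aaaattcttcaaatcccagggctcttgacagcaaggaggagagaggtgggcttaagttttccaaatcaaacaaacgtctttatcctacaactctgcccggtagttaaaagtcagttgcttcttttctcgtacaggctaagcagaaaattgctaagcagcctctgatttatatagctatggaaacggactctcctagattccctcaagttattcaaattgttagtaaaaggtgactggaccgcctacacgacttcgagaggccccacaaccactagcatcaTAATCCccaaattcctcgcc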

How the data were processed

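The authors mapped reads with STAR 2.7.9a (mm10) and counted pairs per gene with featureCounts (Subread 2.0.1). The strand setting and annotation release are not stated. Symbols and positions came from GENCODE M21. Genes were kept by edgeR's filterByExpr (minimum count 10, minimum total 15, proportion 0.7, large groups from 10), scaled with TMM, and tested with limma 3.58.1 on voom weights in R 4.3.3, with sex as a term and mouse as a random block (2 rounds of duplicateCorrelation; no block for PBS days). A prior count of 2 entered log2 CPM. Adjustment was by Benjamini-Hochberg over all genes tested. EdgeR 4.0.16 and DESeq2 1.42.0 were alternatives. The members and gene lists were chosen with earlier results of these data known. Values by retina are given for the 3 members with the smallest FDR in each direction in IL1A+TNF against PBS (batch 1) and the 3 with the smallest FDR in the genotype by treatment interaction, and from each other list up to 2 genes in each direction are named by smallest FDR. Levels by retina of Slc17a7, Ctbp2 and Snap91 were added after their values were seen. The 2 eyes of a mouse had a median correlation of 0.252 (−0.263 to 0.578) after group means were removed, above 0.1 in 30 of 45 mice. No 2 retinas of a group were duplicates (smallest mean chi-square per gene 5.00 over 14768 genes). Jun-deficient mice, immunostaining and cell counts were not analysed here.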

Additional observations from a re-analysis of the deposited data

Results flagged for a closer look

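In groups of 4 to 10 retinas, the highest or lowest value of the 6 members described by retina, and of the mean log2 CPM of all 32 members, was compared with the rest of its group by Dixon's ratio. In 8 of 77 groups it lay past the 95% critical value, where chance alone gives 3.85 (5%).

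Low values were those of Dnm1 in the day 14 TNF retina of mouse 59708, at 520 CPM (the others 571 to 597), of Rims2 in the day 14 PBS retina of mouse 59830, at 267 CPM (the others 308 to 326), and of Syn2 in the day 2 TNF retina of mouse 59833, at 32.3 CPM (the others 36.2 to 39.6). In the IL1A retina of mouse 60637, Rims1 was at 44.8 CPM (the others 68.9 to 87.8) and Syn2 at 22.5 CPM (the others 30.1 to 37.8). In the Sarm1-/- PBS retina of mouse 61561, Syn2 was at 33.1 CPM (the others 37.7 to 39.5). High values were those of Rims2 in the Sarm1-/- PBS retina of mouse 61765, at 273 CPM (the others 199 to 227), and of the members' mean log2 CPM in the day 14 PBS retina of mouse 60032, at 7.89 (the others 7.82 to 7.85). Without the IL1A retina of mouse 60637, 8 members were lower after IL1A in place of 17. Without both eyes of mouse 61561, 18 in place of 10 were lower in the genotype by treatment interaction and 20 in place of 12 in Sarm1-/- against WT after IL1A+TNF. Without the PBS retina of mouse 59830, 6 in place of 11 were higher at PBS day 14 against day 2. Leaving out the retina of mouse 59708 or 60032 named here left the day 14 counts within 1.5 times.

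The effect of IL1A+TNF in Sarm1-/- retinas minus that in WT retinas passed limma's test of the difference in 10 members. As log2 fold changes, it was −1.19 for Syt2, −0.44 for Stx1a, −0.50 for Vamp1, −0.70 for Syn1, −0.80 for Syn2, −0.70 for Sv2a, −0.91 for Sv2c, −0.81 for Rims1, −0.87 for Cplx1 and −0.65 for Cplx2. With the libraries of mice 61926, 61924 and 61765 left out, limma called 0 of the 32 members. At an unadjusted p under 0.05 there were then 16, all higher, with Rims1 (0.36) the 1 of the 10 among them, where 7.71% of all genes were higher and 8.52% lower at that p. The libraries left out were picked for their low members.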

How the results depend on the processing

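Counts of members that passed were recomputed under each alternative. Of the recomputed counts 468 were within 1.5 times the reported count and 66 were not. The 468 include counts of 0 that stayed at 0, such as those after TNF alone. Of the recomputed log2 fold changes of members that had passed, 2323 kept their sign and their side of the threshold. A further 401 kept their sign but missed the threshold, and 78 changed sign. All 78 are in the 3 comparisons with Sarm1-/- IL1A+TNF retinas. Where a count moved, the cause was not tested, unless the alternative used fewer samples.

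Scaling by library totals gave 3 members higher for IL1A+TNF against PBS in batch 1, 1 higher for Sarm1-/- IL1A+TNF, 5 higher and 2 lower for PBS day 14, and 11 higher for PBS day 35. It moved the median of all genes by less than 0.1, for example to 0.05 for IL1A+TNF and to −0.06 for PBS day 35. Without a filter, 1 member was lower in the IL1A by TNF interaction and 0 were lower at PBS day 35. With mouse as a fixed replicate block, which used only mice with 2 eyes in different groups, the counts were 0 higher for IL1A+TNF, 0 higher and 11 lower for IL1A, 0 lower for IL1A+TNF against IL1A, 0 for the IL1A by TNF interaction, 0 for the genotype interaction and 1 for WT retinas of batch 2. The block changed no other count by more than 1.5 times, and it was not run for the 2 comparisons of Sarm1-/- with WT, which could not be fitted with it. Sample quality weights, chosen after seeing the data, gave 15 lower for IL1A+TNF against IL1A, 5 for the IL1A by TNF interaction, 21 for WT retinas of batch 2, 14 for Sarm1-/- IL1A+TNF, and 0 lower and 0 higher for Sarm1-/- against WT in IL1A+TNF and 0 for the genotype interaction. For the 14 no share of all genes is given.

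Sarm1-/- against WT in IL1A+TNF retinas gave 1 lower with edgeR, 3 lower with DESeq2, and 0 lower and 0 higher in batch 2 alone, and the genotype interaction gave 0, 1 and 0 lower with these. Leaving out the 3 libraries gave 0 lower for Sarm1-/- IL1A+TNF, 6 higher (2.26% of all genes) and 0 lower for Sarm1-/- against WT, and 0 for the interaction. Since the 3 were picked for low members in 1 group, the 6 are not read as a difference. For WT retinas of batch 2 it gave 27 lower, and a fit of the 11 WT retinas alone gave 25. Leaving out only 2 of the 3 Sarm1-/- libraries gave 15 lower for Sarm1-/- IL1A+TNF, and 0 lower and 0 higher for Sarm1-/- against WT and for the interaction. No share of all genes is given for the 15. Females alone gave 0 higher and 23 lower for Sarm1-/- against WT and 22 lower for the interaction. Males alone gave 0 lower for Sarm1-/- IL1A+TNF, 3 higher and 0 lower for Sarm1-/- against WT, and 1 higher and 0 lower for the interaction. These subsets were chosen after seeing the data.

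With 1 retina or mouse left out in turn, using the mouse correlation of all data (0.0515 at day 2 in batch 1, 0.284 at day 14, 0.00525 over both batches), the members lower were 24 to 26 for IL1A+TNF in batch 1, 8 to 19 for IL1A (8 without mouse 60637), and 0 to 0 for TNF, at day 14 too. PBS day 14 against day 2 gave 6 to 10 higher (6 without 59830). WT retinas of batch 2 gave 2 to 8 without a PBS retina (2 without 61720, 61722 or 61927) and 3 to 9 without an IL1A+TNF retina (3 without 62224, 4 without 61719 or 61721). Without a Sarm1-/- mouse the counts were 21 to 29 for Sarm1-/- IL1A+TNF, 0 to 20 lower and 0 to 2 higher for Sarm1-/- against WT in IL1A+TNF, and 0 to 18 for the interaction (0 without 61924 or 61926, 18 without 61561). Without a WT PBS retina of batch 2 they were 26 to 27, 11 to 12 and 10 to 10. Apart from the counts of genes printed further above, the share of all genes is not given for these counts.

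The members that changed sign in the 3 Sarm1-/- comparisons are given as log2 fold changes, each reported as negative with all libraries.

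Without the 3 libraries that stood apart, values turned positive for Syt2 0.0952, Syp 0.0752, Bsn 0.0928 and Syt1 0.0307 in IL1A+TNF against PBS in Sarm1-/-. For Sarm1-/- against WT in IL1A+TNF retinas they were Stx1a 0.0119, Syn2 0.21, Cplx2 0.27, Syt2 0.14, Vamp1 0.19, Cplx1 0.27, Syn1 0.15, Sv2a 0.28, Cplx3 0.36, Rims1 0.44, Sv2c 0.31 and Syn3 0.0986. For the genotype by treatment interaction they were Syn2 0.12, Cplx2 0.19, Vamp1 0.15, Cplx1 0.23, Syn1 0.16, Sv2a 0.18, Rims1 0.36 and Sv2c 0.28.

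Without the IL1A+TNF retinas of mice 61926 and 61924 alone, values turned positive for Syt2 0.0065 in IL1A+TNF against PBS in Sarm1-/-. For Sarm1-/- against WT in IL1A+TNF retinas they were Syn2 0.0055, Cplx2 0.10, Syt2 0.0522, Sv2a 0.12, Cplx3 0.28, Rims1 0.17 and Syn3 0.0057. For the genotype by treatment interaction they were Cplx2 0.022, Sv2a 0.0194 and Rims1 0.0882.

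In male retinas alone, values turned positive for Syt2 0.0297, Dnm1 0.0194, Syp 0.0704, Bsn 0.22, Syt1 0.0011, Erc2 0.0086 and Sv2c 0.0181 in IL1A+TNF against PBS in Sarm1-/-. For Sarm1-/- against WT in IL1A+TNF retinas they were Syn2 0.20, Cplx2 0.29, Syt2 0.13, Vamp1 0.20, Cplx1 0.31, Syn1 0.16, Sv2a 0.27, Cplx3 0.35, Rims1 0.47, Sv2c 0.31 and Syn3 0.0731. For the genotype by treatment interaction they were Syn2 0.17, Cplx2 0.22, Vamp1 0.18, Cplx1 0.26, Syn1 0.22, Sv2a 0.19, Rims1 0.41 and Sv2c 0.30.

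With sample quality weights, values turned positive for Syp 0.0318, Bsn 0.0117 and Syt1 0.0026 in IL1A+TNF against PBS in Sarm1-/-. For Sarm1-/- against WT in IL1A+TNF retinas they were Syn2 0.0224, Cplx2 0.11, Vamp1 0.032, Cplx1 0.0395, Sv2a 0.11, Cplx3 0.19, Rims1 0.19 and Sv2c 0.0345. For the genotype by treatment interaction they were Cplx2 0.0444, Vamp1 0.0131, Cplx1 0.0315, Sv2a 0.0478, Rims1 0.12 and Sv2c 0.0172.

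The lowest count of a member in any retina was 162, for Stx1a, so depth set no floor under these values. For IL1A+TNF against PBS in WT, the standard error of Rims2 was 0.06 in batch 1, 0.20 in the fit of all batch 2 retinas and 0.10 in the WT retinas of batch 2 alone. The planned comparison of complexin proteins was not run.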
